A study of Homo sapiens with 6 samples.

Results

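The data described here are the transcripts of 43 genes that encode histone-modifying enzymes, chosen by gene name from the 29435 rows of the deposited expression table. They comprised 13 lysine methyltransferases, 15 lysine demethylases, 10 deacetylases and 5 acetyltransferases of the MYST family, and each had 1 row. RNA-seq of polyadenylated RNA was done on cells labelled HepG2, a cell line derived from a human liver tumour, cultured with saikosaponin A (SsA), a plant saponin, at 20 µM or with its solvent DMSO, both for 4 h. There were 3 libraries in each group, the labels name no other genotype or agent, and they do not state the origin of the replicates. The spread between libraries, on which every p-value rests, may therefore be technical.

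Library totals ran from 57768359 to 74912492 counts. The SsA replicate 1 and DMSO replicate 3 libraries stood apart: mitochondrial transcripts took 18.8% of the counts in SsA replicate 1 and 7.62% and 8.28% in the other SsA libraries, and 14.9% in DMSO replicate 3 and 6.36% and 6.19% in the other DMSO libraries. The liver label was not borne out by hepatocyte markers. The 6 that had a row (APOA1, TF, FGA, FGB, FGG and HNF4A, of 14 listed) all had a mean FPKM (fragment counts scaled by gene length and library size) below 0.1, and they summed to 0.0184 to 0.0345 in SsA libraries and 0.0160 to 0.0663 in DMSO libraries. Some keratins were abundant, with a mean of 416 FPKM for KRT18, and the 7 of 9 epithelial markers with a row summed to 943 to 1239 FPKM in SsA libraries and 796 to 1058 in DMSO libraries. This sum came almost wholly from KRT7, KRT8, KRT17 and KRT18, while EPCAM, CDH1 and KRT19 had a mean FPKM below 0.1. Of 10 fibroblast markers, 9 had a row and summed to 165 to 169 FPKM in SsA libraries, against 145 to 149 in DMSO libraries. Most of this sum was VIM, at 133 to 140 FPKM in SsA libraries and 103 to 111 in DMSO libraries. COL1A1 (2.95 to 3.97 against 8.51 to 8.61 FPKM) and PDGFRB (0.998 to 1.35 against 1.94 to 2.02 FPKM) were lower in SsA libraries. For the other fibroblast markers the groups overlapped, and DCN, PDGFRA and THY1 had a mean below 0.1 FPKM. Of 9 endothelial and leukocyte markers, 5 had a row and summed to 1.37 to 3.32 and 2.26 to 5.17 FPKM in SsA and DMSO libraries. The part of these differences in the results below was not tested.

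Histone methyltransferases place methyl groups on lysines of the histone tails and demethylases remove them: methylation of H3K4 and H3K36 marks promoters and transcribed gene bodies, and that of H3K9 and H3K27 marks silenced chromatin. Acetyltransferases neutralise the charge of lysines, which loosens chromatin, and deacetylases restore it. Most of these enzymes work inside large complexes, and many of their genes have long transcripts.

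In SsA-treated cells 10 of 13 methyltransferase and 11 of 14 tested demethylase transcripts were lower than in DMSO-treated cells, alongside 2 of 10 deacetylases and 2 of 4 tested acetyltransferases. The difference between classes was not tested, and the classes differ in transcript length, as given below. Of the 43 genes, 41 passed the expression filter (FPKM of at least 1 in at least 3 libraries) and were tested on the counts with edgeR's quasi-likelihood test, with p-values adjusted over all 11427 genes tested and a threshold of 0.05. In SsA, 25 of the 41 were lower, 2 were higher (HDAC2 and HDAC3) and 14 did not pass the test. Over all genes tested, 53.8% were called, 27.9% as lower and 25.9% as higher. The median log2 fold change, SsA over DMSO, was -0.57 over the 41 genes and 0.03 over all tested genes. At least 2-fold lower were 6 of the 41 (DOT1L, ASH1L, KAT6A, NSD1, KDM2A and KDM6B), against 5.42% of all tested genes. Of the 25 lower genes, KAT6A, KDM6A and KDM6B were below 1 FPKM in every SsA library. They passed the expression filter only through the DMSO libraries, where they were high. CPM values (counts scaled by library size after TMM normalisation) of the 3 SsA libraries lay wholly outside those of the 3 DMSO libraries for 30 of the 41, against 62.8% of all tested genes. In the 9 pairings of an SsA with a DMSO library, which share libraries, 31 to 36 of the 41 were lower in the SsA library. Without SsA replicate 1 and DMSO replicate 3, the libraries of high mitochondrial share, 29 were lower and 4 higher, and the median was -0.59. Calls over all tested genes rose as well, from 3190 to 3946 lower and from 2956 to 3801 higher. In cultures, less RNA per cell and fewer cells that make it cannot be told apart.

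**Figure D1:**
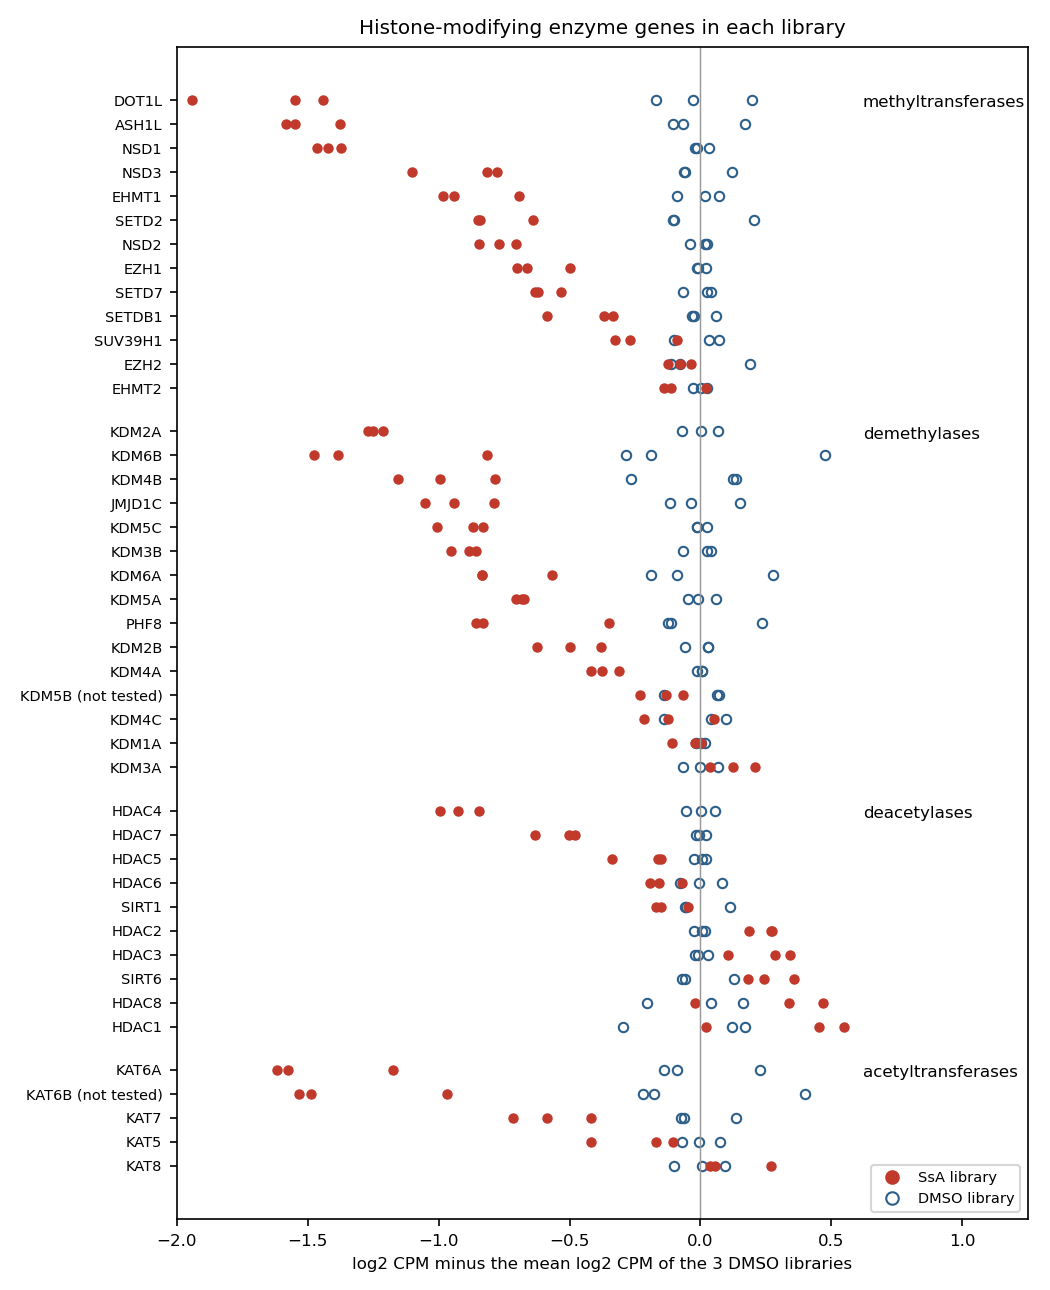
Level of each of the 43 genes in each library (x axis: log2 CPM minus the mean log2 CPM of the 3 DMSO libraries), with filled points for SsA and open points for DMSO, grouped by enzyme class and ordered by fold change. The SsA points lie left of the DMSO points for most methyltransferases and demethylases, with DOT1L, ASH1L, KAT6A and NSD1 farthest left, and to the right for HDAC2 and HDAC3.

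These fold changes went with transcript length. Length was taken as that of a gene's longest GENCODE 29 transcript, although another may be expressed. The 41 genes had a median of 6096 nt, against 3348 nt over all tested genes, and of the 43, 10 lay in the second longest decile of tested protein-coding genes and 15 in the longest decile (over 7540 nt). By class the median was 7436 nt for methyltransferases, 6386 nt for demethylases, 5287.5 nt for deacetylases and 5877 nt for acetyltransferases. In these deciles most protein-coding genes were lower in SsA: the median log2 fold change was -0.45 in the second longest decile, where 68.8% of genes were called lower, and -0.66 in the longest, where 78.3% were. All 10 enzyme genes of the second longest decile and 11 of the 13 tested in the longest were called lower, counts to be read against these shares. Across the 10040 protein-coding genes tested, Spearman's rho between log2 fold change and log2 length was -0.72, and across the 41 genes it was -0.65. With the gene length implied by the deposited FPKM, rho was -0.62 across the protein-coding genes and -0.46 across the 41. With genomic span rho was -0.46 over the 41 genes, with GC content -0.06 and with mean log2 FPKM 0.29. Genes of 1 library set are not independent, and these coefficients are descriptions.

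Set against the quartiles of its own length decile, the fold change of 13 of the 41 genes lay below, 25 lay between and 3 lay above. Over all tested genes, counted once per gene name (11205), 3046 lay below, 5304 between and 2727 above. The 13 below are near that share. Below were NSD1, ASH1L, SUV39H1, EZH1, DOT1L, KDM2A, KDM3B, KDM4B, KDM5C, KDM6A, KDM6B, KAT5 and KAT6A. Above were KDM3A, HDAC2 and HDAC8. To express each gene relative to others of like length, the test was repeated with an offset for each library that was linear in log2 length and estimated on protein-coding genes. This length correction subtracts any difference that genes of like length share, whatever its source, which was not tested. With it, rho with length was -0.03 across protein-coding genes and -0.22 across the 41 genes, of which 16 were lower, 3 higher and 22 not called. Over all tested genes, 32.4% were called with it, 16.8% lower and 15.7% higher. None of the 41 genes was called in opposite directions by the tests without and with the correction. Over all 11427 genes tested 205 were, a small share. Of the 25 lower genes 14 (56.0%) were lower in both tests, against 1497 of the 3190 lower over all tested genes (46.9%). The trend was set on protein-coding genes after a trend set on all genes had been seen to leave rho at -0.43 across protein-coding genes; with that one 22 of the 41 were lower and 3 higher. The count of 16 rests on single libraries: it was 9 without DMSO replicate 1, 9 without SsA replicate 3, and 19 without SsA replicate 1. Without SsA replicate 1 and DMSO replicate 3 together it was 22, with 4 higher. For these corrected fits with libraries left out, no count over all tested genes is given here. Lower with the correction in the full data and without each library in turn were 8 genes: NSD1, ASH1L, EZH1, DOT1L, KDM2A, KDM3B, KDM5C and KAT6A. Of these, KAT6A passed the expression filter only through the DMSO libraries.

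**Figure D2:**
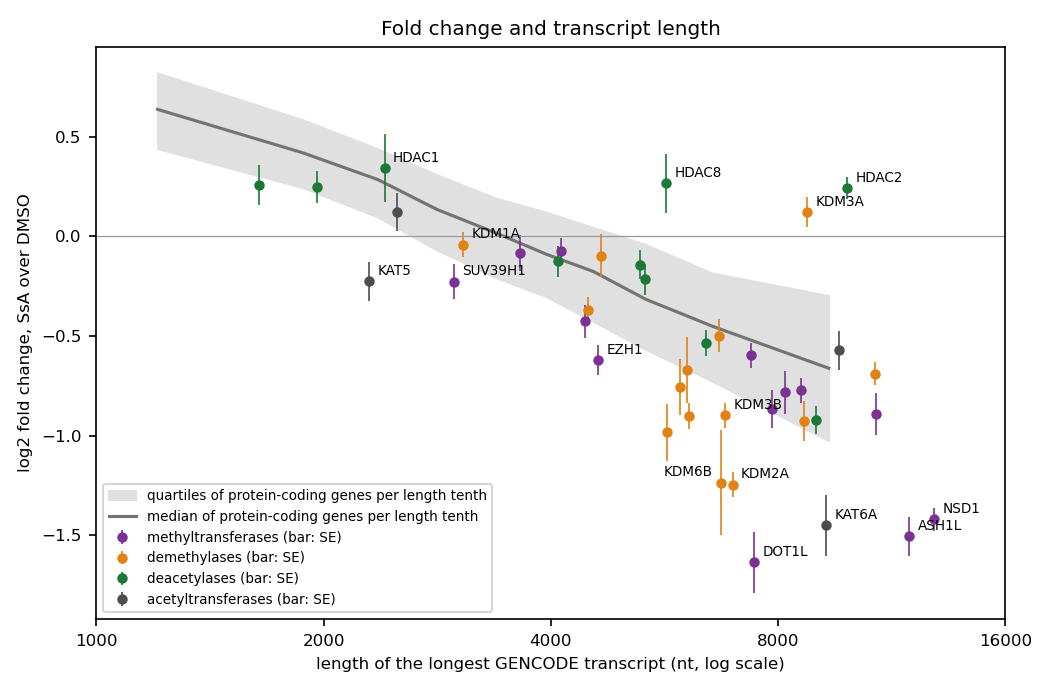
Log2 fold change (SsA over DMSO, bars: SE) against the length of the longest transcript (nt, log axis) for the 41 tested genes, coloured by class, with the median (line) and quartiles (grey) of tested protein-coding genes drawn at the median length of each decile. The grey band falls with length and ends at 9337 nt, with DOT1L and KAT6A below it and KDM3A and HDAC8 above it. ASH1L, NSD1 and HDAC2 lie to the right of its end. Of these, ASH1L and NSD1 are below the lower quartile of the longest decile and HDAC2 is above the upper.

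Among the methyltransferases 10 of 13 were lower in SsA and 3 not called, with a median log2 fold change of -0.77. Corrected for length, 6 of 13 were lower and the median was -0.25. The group contained all 5 enzymes listed for H3K36, and all 5 were lower. All 5 lie in the longest decile, where 78.3% of protein-coding genes were called lower. NSD1 (ENSG00000165671, chr5:177133025-177295762, plus strand, GRCh38), which places the first methyl groups on H3K36, had 68.1, 66.1 and 70.5 CPM in SsA libraries, against 181, 180.0 and 187 CPM in DMSO libraries. The groups were far apart and the SsA level was 2.67-fold lower, a log2 fold change of -1.42 ± 0.06 (SE; edgeR, adjusted p = 3.94e-05), or -0.58 ± 0.07 with the length correction. ASH1L (ENSG00000116539, chr1:155335268-155562803, minus strand), a trithorax-group H3K36 methyltransferase, had 65.2, 57.9 and 56.4 CPM in SsA libraries and 157, 162 and 190.3 CPM in DMSO libraries. Its log2 fold change was -1.50 ± 0.10 (edgeR, adjusted p = 0.000102) and -0.71 ± 0.06 with the correction. NSD2, whose translocation drives a subset of myelomas, had 117, 129 and 123 CPM in SsA libraries and 213, 212 and 204 CPM in DMSO libraries. That was a log2 fold change of -0.77 ± 0.06 (edgeR, adjusted p = 0.000173), but with the length correction it was -0.19 ± 0.08 and not called. NSD3 (-0.89) and SETD2 (-0.78), the enzyme that trimethylates H3K36, were likewise lower, and with the correction they stood at -0.15 and -0.22 and were not called. NSD3 overlaps DDHD2 on the other strand over 5855 nt, and the sources used here do not give the strand setting of the counting, so reads of such pairs cannot be told apart.

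DOT1L, the H3K79 methyltransferase of transcribed genes and of leukaemias with MLL fusions, had the largest fold among the 41, for which its values are given here. It had 18.8, 17.4 and 13.3 CPM in SsA libraries and 45.3, 50.0 and 58.4 CPM in DMSO libraries. The log2 fold change was -1.64 ± 0.15 (edgeR, adjusted p = 0.000296), 3.11-fold lower in SsA, and -1.14 ± 0.13 with the correction. SETD7, which monomethylates H3K4 and non-histone proteins, was lower at -0.60, and stood at -0.10, not called, with the correction.

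The enzymes of silenced chromatin were mixed. Those called lower, EHMT1, SETDB1 and EZH1, have longest transcripts of 7842, 4437 and 4623 nt. Those not called, EHMT2, SUV39H1 and EZH2, have 4129, 2978 and 3641 nt. For H3K9, EHMT1 (-0.87) and SETDB1 (-0.43) were lower, while EHMT2 (-0.08) and SUV39H1 (-0.23; edgeR, adjusted p = 0.0607) did not pass the test. SUV39H1, which trimethylates H3K9 in heterochromatin, passed it without DMSO replicate 3 (edgeR, adjusted p = 0.0269) or without SsA replicate 2 (0.0389), and with the length correction it was lower at -0.30, a call lost without DMSO replicate 1 or 2 or SsA replicate 3. The SETDB1 log2 fold change with the correction was -0.25, not called, and SETDB1 overlaps CERS2 on the other strand over 4162 nt. For H3K27, EZH1 fell and EZH2, the other catalytic subunit of the Polycomb repressive complex PRC2, did not pass the test. EZH1 had 32.5, 28.2 and 28.998 CPM in SsA libraries and 46.6, 45.5 and 45.7 CPM in DMSO libraries, a log2 fold change of -0.62 ± 0.07 (edgeR, adjusted p = 0.000747) and -0.42 ± 0.07 with the correction. EZH2 had 68.5, 70.7 and 72.9 CPM in SsA libraries and 69.0, 70.8 and 85.1 CPM in DMSO libraries. These groups overlap, and the log2 fold change was -0.08 ± 0.09 (edgeR, adjusted p = 0.463).

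Of the demethylases 11 of the 14 tested were lower in SsA and 3 not called, with a median log2 fold change of -0.72. After the length correction 7 were lower, 1 (KDM3A) was higher and the median was -0.31. The 11 all belonged to the 13 tested enzymes with a JmjC domain, which demethylate lysines by an iron- and oxoglutarate-dependent oxidation. KDM2A (ENSG00000173120, chr11:67119263-67258082, plus strand), an H3K36 demethylase that binds CpG islands, had 50.5, 48.6 and 49.2 CPM in SsA libraries and 117, 111 and 123 CPM in DMSO libraries. It was 2.37-fold lower, a log2 fold change of -1.25 ± 0.06 (edgeR, adjusted p = 5.11e-05) and -0.79 ± 0.05 with the correction. KDM3B, an H3K9 demethylase, had 70.2, 71.5 and 66.9 CPM in SsA libraries and 133, 132 and 124 CPM in DMSO libraries. Its log2 fold change was -0.90 ± 0.06 (edgeR, adjusted p = 0.000112), or -0.45 ± 0.07 corrected for length. KDM5C, an X-linked H3K4 demethylase, had 126, 143 and 139 CPM in SsA libraries and 251, 258 and 251 CPM in DMSO libraries. Every SsA library was far below every DMSO library, and the log2 fold change was -0.90 ± 0.07 (edgeR, adjusted p = 0.000138) and -0.52 ± 0.07 with the correction.

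Both H3K27 demethylases fell, KDM6B with a log2 fold change of -1.24 ± 0.26 and KDM6A with -0.75 ± 0.14. KDM6B was the least counted of the 43, with 362 counts in its lowest library, and its spread was wide. After this correction they stood at -0.80 and -0.39 and were called, but KDM6B lost that call without SsA replicate 2 or 3 or any 1 of the 3 DMSO libraries, and KDM6A without SsA replicate 2 or 3 or DMSO replicate 1 or 3. Also lower were JMJD1C (-0.93), the H3K9 and H3K36 demethylases KDM4A (-0.37) and KDM4B (-0.98), the H3K4 demethylase KDM5A (-0.69), the CpG-island binder KDM2B (-0.50), and PHF8 (-0.67), which acts on H3K9 and H4K20. The call of PHF8 was lost without SsA replicate 2 (edgeR, adjusted p = 0.0510). With the correction KDM4B (-0.65) and JMJD1C (-0.33) were still called, KDM4A (-0.18), KDM2B (-0.07) and PHF8 (-0.30) were not, and KDM5A stood at 0.04. Without SsA replicate 1 the corrected test also called KDM4A, PHF8 and SETDB1 lower (edgeR, adjusted p = 0.0426, 0.0183 and 0.0385). The calls of KDM4B and JMJD1C with the correction were lost without DMSO replicate 1 or SsA replicate 3, that of KDM4B also without DMSO replicate 2 and that of JMJD1C also without SsA replicate 2. Outside the called genes were KDM1A, the flavin-dependent H3K4 demethylase, at -0.04, KDM4C at -0.10 and KDM3A at 0.12. KDM5B was not tested because it failed the expression filter. It had 26.0, 24.9 and 23.2 CPM in SsA libraries and 28.7, 28.5 and 24.8 CPM in DMSO libraries, and an unfiltered fit of all 29435 rows gave -0.09 ± 0.10 (edgeR, adjusted p = 0.533).

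Among the deacetylases 2 of 10 were higher, 2 lower and 6 not called, with a median log2 fold change of 0.06. Corrected for length, 2 were higher, 1 was lower and the median was 0.04. HDAC2 (ENSG00000196591, chr6:113933028-114011308, minus strand), a class I deacetylase of the SIN3, NuRD and CoREST complexes, had 221, 234 and 235 CPM in SsA libraries and 195, 197 and 191 CPM in DMSO libraries. All SsA libraries were above all DMSO libraries by a small margin, and the log2 fold change was 0.24 ± 0.06 (edgeR, adjusted p = 0.0099). Its longest transcript has 9874 nt, where the median gene was lower, and with the length correction the log2 fold change was 0.92 ± 0.08 (edgeR, adjusted p = 0.000485). On log2(TPM + 1), where the median of all genes shifted to -0.31, HDAC2 was at -0.12 and not called. Its call was also lost by limma on log2(FPKM + 1) and log2(FPKM + 0.1) (adjusted p = 0.608 and 0.609), among genes averaging 5 FPKM or more (edgeR, adjusted p = 0.0558) and with the replicate number as a block (edgeR, adjusted p = 0.0547). HDAC2 overlaps the antisense gene HDAC2-AS2 over 41608 nt, and 23 of the 43 genes overlap at least 1 opposite-strand row. Since the strand setting is not given, reads of such partners cannot be told apart. HDAC3, the deacetylase of the NCoR and SMRT corepressors, had 52.1, 61.4 and 58.9 CPM in SsA libraries and 48.1, 49.4 and 47.6 CPM in DMSO libraries, a log2 fold change of 0.25 ± 0.08 (edgeR, adjusted p = 0.0321). This call was lost without any 1 of the DMSO libraries and without SsA replicate 2 or 3 (edgeR, adjusted p of 0.0607 to 0.117), and in the same settings as that of HDAC2. HDAC3 is short, at 1959 nt, and with the correction it was at -0.09 and not called, and on log2(TPM + 1) it was at -0.12.

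The other class I enzymes did not pass the test: HDAC1 was at 0.34 ± 0.17 (edgeR, adjusted p = 0.126) and HDAC8 at 0.27 ± 0.15 (edgeR, adjusted p = 0.165). HDAC1 had 129.9, 175 and 187 CPM in SsA libraries and 139, 144 and 104 CPM in DMSO libraries. The SsA replicate 1 library lay among the DMSO libraries, and without it both genes were called higher (edgeR, adjusted p = 0.0266 for HDAC1 and 0.0325 for HDAC8). HDAC8 was higher with the length correction, at 0.60, a call lost without SsA replicate 2 or 3 or DMSO replicate 1 or 3. The gene lies within the same-strand annotation AL133500.1 over 243328 nt, so its counts are uncertain. Of the 3 class IIa enzymes, which shuttle between cytoplasm and nucleus, 2 were lower, and 1 with the correction. HDAC4 had 29.5, 32.6 and 30.9 CPM in SsA libraries and 56.5, 58.7 and 60.9 CPM in DMSO libraries, a log2 fold change of -0.92 ± 0.07 (edgeR, adjusted p = 0.000155) and -0.30 ± 0.07 with the correction. That corrected call was lost without DMSO replicate 1 or 2 or SsA replicate 3. HDAC7 had 53.4, 59.3 and 58.4 CPM in SsA libraries and 82.3, 84.0 and 81.8 CPM in DMSO libraries, a log2 fold change of -0.54 ± 0.06 (edgeR, adjusted p = 0.000738) and -0.13, not called, with the correction. HDAC5 was at -0.21 (edgeR, adjusted p = 0.0511; 0.0478 without SsA replicate 1), and at 0.08 with the correction. HDAC6, which deacetylates tubulin, was at -0.14, and the NAD-dependent sirtuins SIRT1 and SIRT6 were at -0.12 and 0.26, none of them called.

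Of the MYST acetyltransferases, 2 of the 4 tested were lower and 2 not called, with a median log2 fold change of -0.40, and with the length correction 2 were lower, with a median of -0.26. KAT6A (ENSG00000083168, chr8:41929479-42051994, minus strand), also known as MOZ, had 23.7, 17.9 and 17.4 CPM in SsA libraries and 48.5, 50.2 and 62.4 CPM in DMSO libraries. It was 2.73-fold lower, a log2 fold change of -1.45 ± 0.15 (edgeR, adjusted p = 0.000437) and -0.81 ± 0.12 with the correction. KAT6B, its paralog, failed the expression filter with 17.7, 11.9 and 12.3 CPM in SsA libraries and 30.5, 29.7 and 45.6 CPM in DMSO libraries. The groups did not overlap, and the unfiltered fit gave -1.28 ± 0.20 (edgeR, adjusted p = 0.00257). KAT7, which acetylates H3K14 and H4 and licenses replication origins, had 70.6, 57.5 and 62.8 CPM in SsA libraries and 90.3, 89.6 and 104 CPM in DMSO libraries. Its log2 fold change was -0.57 ± 0.10 (edgeR, adjusted p = 0.00309), but 0.09 ± 0.08 with the correction, which did not pass the test. KAT5, the TIP60 acetyltransferase of the DNA damage response, was at -0.23 and not called, and with the correction, as a short gene, it was lower at -0.46. That corrected call was lost without DMSO replicate 1 (edgeR with the correction, adjusted p = 0.0526), and KAT5 overlaps RNASEH2C on the other strand over 5600 nt. KAT8, which acetylates H4K16, was at 0.12.

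**Figure D3:**
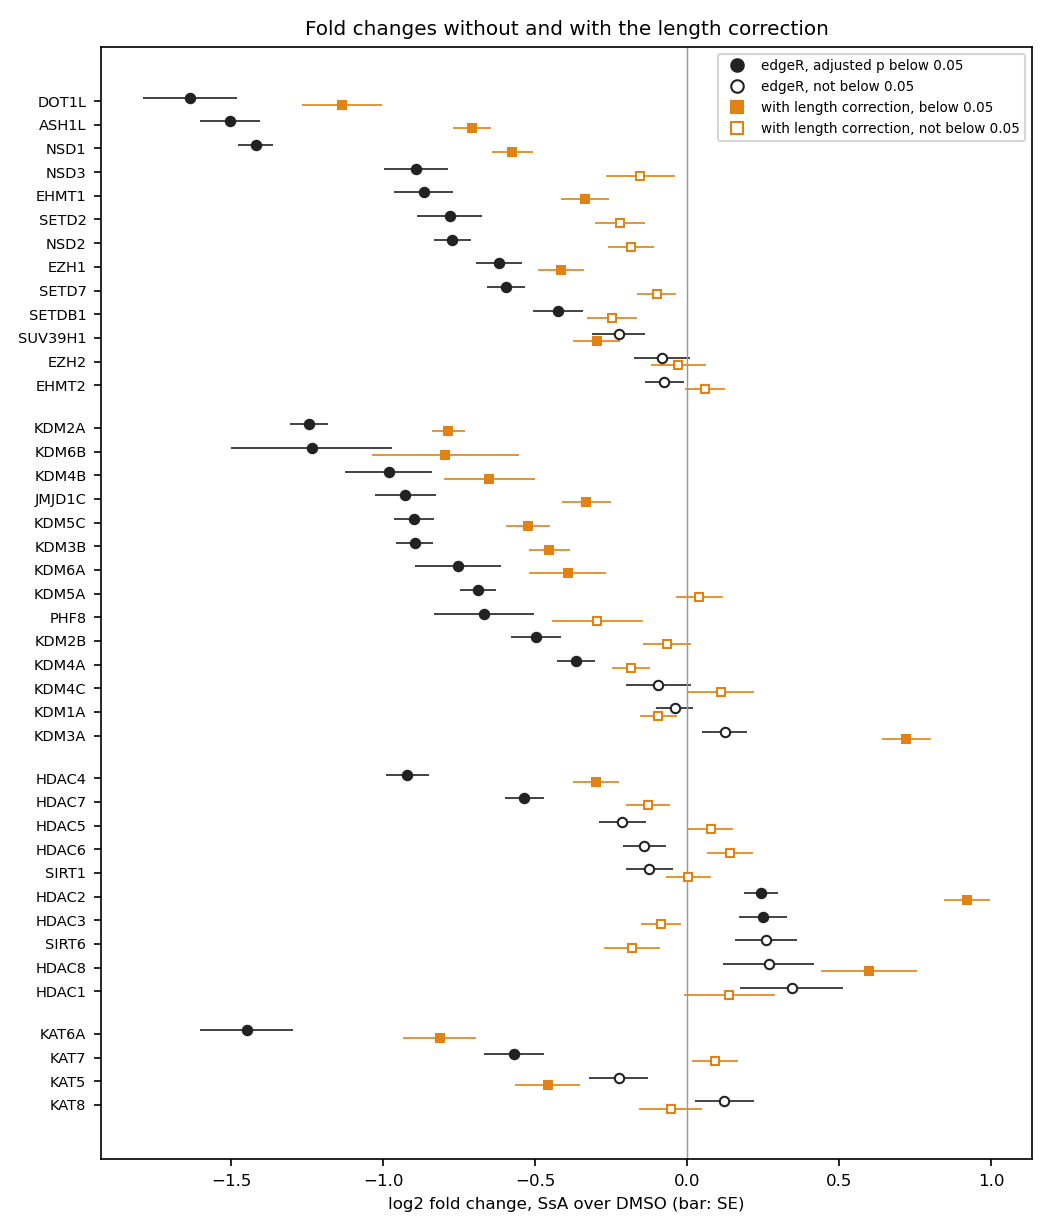
Log2 fold change (SsA over DMSO, bars: SE) of the 41 tested genes without (circles) and with (squares) the length correction, filled where the adjusted p of edgeR was below 0.05. The correction moves the long genes to the right, leaving DOT1L, KAT6A, KDM6B, KDM2A and ASH1L lowest. HDAC2, KDM3A and HDAC8 are above 0 without it and farther above 0 with it.

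Several of these enzymes come as paralog pairs with the same substrate, and the ratio of their counts within a library does not depend on library scaling. The ratio was compared between groups for 5 pairs with an exact two-sided permutation test, which cannot go below p = 0.1 with 3 against 3 libraries, and p-values were adjusted over the 5 pairs. For the H3K9 demethylases, the log2 ratio of KDM3A to KDM3B was -0.40, -0.51 and -0.50 in SsA libraries, against -1.53, -1.45 and -1.49 in DMSO libraries. The groups do not overlap, and the ratio was 2.03-fold higher in SsA (difference 1.02 in log2; exact permutation p = 0.1, adjusted 0.167). KDM3A itself had 53.2, 50.2 and 47.3 CPM in SsA libraries and 46.0, 48.3 and 44.0 CPM in DMSO libraries, which overlap. Its log2 fold change was 0.12 ± 0.07 (edgeR, adjusted p = 0.194), and 0.72 ± 0.08 with the length correction (edgeR, adjusted p = 0.00111), since a transcript of 8741 nt lies among genes that were mostly lower. Its log2 fold change was -0.03 on log2(FPKM + 1) and -0.22 on log2(TPM + 1), where the medians of all genes were -0.11 and -0.31, and it was not called on either scale.

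For the H3K9 methyltransferases, which act as a heterodimer, the log2 ratio of EHMT1 to EHMT2 averaged -1.01 ± 0.07 in SsA libraries and -0.21 ± 0.10 in DMSO libraries (SD, n = 3 each), a difference of -0.80 with no overlap (exact permutation p = 0.1, adjusted 0.167). EHMT1 had 45.0, 37.9 and 36.9 CPM in SsA libraries and 68.4, 73.7 and 76.5 CPM in DMSO libraries, a log2 fold change of -0.87 ± 0.10 (edgeR, adjusted p = 0.000526). With the length correction it was -0.34, a call lost without DMSO replicate 2 or SsA replicate 2 or 3. EHMT1 shares 92027 nt with the same-strand annotation AL590627.2, so its counts are uncertain. EHMT2 had 85.6, 78.0 and 76.6 CPM in SsA libraries and 84.5, 85.9 and 82.7 CPM in DMSO libraries, which overlap. The log2 ratio of EZH1 to EZH2 averaged -1.24 ± 0.15 in SsA libraries and -0.70 ± 0.17 in DMSO libraries (SD, n = 3 each), a difference of -0.54 with no overlap (exact permutation p = 0.1, adjusted 0.167). HDAC1 to HDAC2 averaged -0.50 ± 0.23 in SsA libraries and -0.60 ± 0.23 in DMSO libraries, and KAT6A to KAT6B averaged 0.50 ± 0.08 in SsA libraries and 0.63 ± 0.16 in DMSO libraries. In both of these pairs the groups overlap (exact permutation p = 0.5 and 0.3). The longer transcript is that of EZH1, EHMT1, KDM3A, HDAC2 and KAT6A, so that the pair with the widest shift, KDM3A and KDM3B, moved against the order of lengths.

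**Figure D4:**
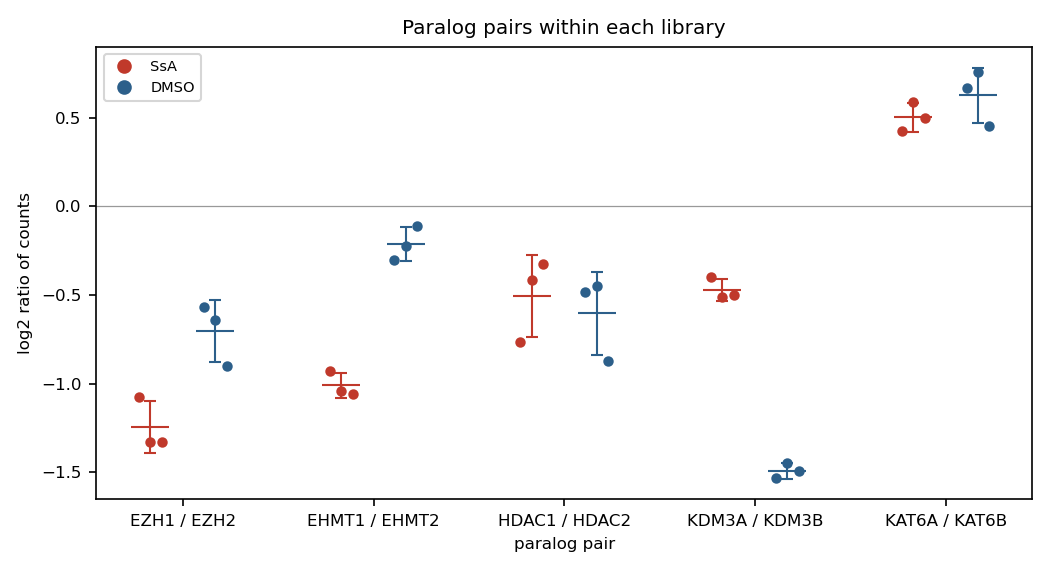
Log2 ratio of the counts of 2 paralogs within each library (points), with the mean and SD of 3 libraries (lines), SsA left of DMSO for each pair. The KDM3A to KDM3B ratio is higher in all SsA libraries, the EHMT1 to EHMT2 and EZH1 to EZH2 ratios are lower, and the other pairs overlap.

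The promoters of the pairs with the widest shifts are printed below. Whether their sequences bear on these shifts was not tested, and the paralogs also differ in transcript length. They are RefSeq windows of GRCh38.p14 that span an annotated start and lie mostly before it, and capitals mark motif matches on either strand. The motifs searched were the CCAAT box, with the letters of its name, the AP-1 motif TGANTCA, the E-box CACGTG, the GC box GGGCGG, the cAMP response element TGACGTCA and the NRF1 motif. KDM3A has a second start, and the window shown, chr2:86441211-86441510 (plus strand), was picked as the one that holds an AP-1 match. The other KDM3A window has no AP-1 match.
KDM3A: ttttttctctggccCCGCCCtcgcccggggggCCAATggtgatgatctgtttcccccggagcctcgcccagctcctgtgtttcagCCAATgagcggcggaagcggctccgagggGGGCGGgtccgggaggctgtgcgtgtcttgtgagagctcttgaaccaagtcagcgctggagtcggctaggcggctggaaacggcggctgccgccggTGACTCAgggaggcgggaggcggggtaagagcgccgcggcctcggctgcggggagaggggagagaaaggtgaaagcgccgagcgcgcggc
KDM3B: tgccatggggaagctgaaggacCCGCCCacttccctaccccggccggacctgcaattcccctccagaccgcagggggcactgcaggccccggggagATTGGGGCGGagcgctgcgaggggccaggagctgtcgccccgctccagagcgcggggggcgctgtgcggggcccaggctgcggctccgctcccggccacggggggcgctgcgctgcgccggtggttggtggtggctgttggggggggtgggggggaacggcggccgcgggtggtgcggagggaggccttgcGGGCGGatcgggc
EHMT1: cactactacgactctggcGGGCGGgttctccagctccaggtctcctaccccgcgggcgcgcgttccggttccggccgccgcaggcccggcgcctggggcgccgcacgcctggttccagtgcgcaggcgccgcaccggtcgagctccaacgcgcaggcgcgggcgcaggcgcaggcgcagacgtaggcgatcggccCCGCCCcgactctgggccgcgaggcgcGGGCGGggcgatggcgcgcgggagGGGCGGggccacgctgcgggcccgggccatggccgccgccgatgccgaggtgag
EHMT2: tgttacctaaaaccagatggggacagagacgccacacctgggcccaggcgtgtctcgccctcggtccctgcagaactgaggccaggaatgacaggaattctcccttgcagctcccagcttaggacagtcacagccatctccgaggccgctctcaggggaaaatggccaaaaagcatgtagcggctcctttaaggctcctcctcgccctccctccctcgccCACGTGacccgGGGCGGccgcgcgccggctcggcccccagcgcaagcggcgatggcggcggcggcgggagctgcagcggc
The KDM3B window is chr5:138352435-138352734 (plus strand), that of EHMT1 chr9:137618755-137619054 (plus strand) and that of EHMT2 chr6:31897649-31897948 (minus strand). The KDM3A window holds 1 AP-1 match, 2 CCAAT boxes and 2 GC boxes, and that of KDM3B 1 CCAAT box and 3 GC boxes, of which a reversed CCAAT box runs into a GC box. EHMT1 has 4 GC boxes, and EHMT2 has 1 E-box and 1 GC box. Of the 43 genes, 38 matched a RefSeq window, and a GC box was present in 29 of the 38, against 48.3% of the 27305 genes with a window. An E-box was present in 10 of 38 against 8.77%, a CCAAT box in 16 against 39.7% and an AP-1 match in 3 against 9.37%. The 38 genes have 64 windows and all genes 35116, so more windows per gene, which raises a share per gene. Per window, a GC box was present in 67.2% of the 64 against 45.0% of all windows, an E-box in 17.2% against 7.26%, a CCAAT box in 31.2% against 34.6% and an AP-1 match in 4.69% against 7.71%. Among the 22 lower genes with a window, 16 had a GC box and 6 an E-box. Matches to the cAMP response element and to NRF1 were each present in 1 of 38, against 2.25% and 1.52% of all genes. These are matches of letters, not evidence of binding.

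In FPKM, a level per length, the genes spanned a wide range. KDM1A was highest, at 70.7 ± 5.02 FPKM in SsA libraries and 81.6 ± 7.77 FPKM in DMSO libraries (SD, n = 3 each), followed in DMSO libraries by HDAC1 at 33.8 ± 8.08 FPKM in SsA libraries and 29.9 ± 7.24 FPKM in DMSO libraries. KDM5C was at 12.6 ± 1.61 FPKM in SsA libraries and 26.4 ± 2.44 FPKM in DMSO libraries, which in DMSO does not differ from HDAC1 beyond the spread. SUV39H1 was at 14.1 ± 2.01 FPKM in SsA libraries and 18.4 ± 2.62 FPKM in DMSO libraries. Lowest in SsA libraries were KAT6B at 0.343 ± 0.0537 FPKM and KAT6A at 0.654 ± 0.0697 FPKM, against 0.970 ± 0.154 and 2.003 ± 0.104 FPKM in DMSO libraries. These ranks rest on the lengths behind the deposited FPKM. As implied by counts and FPKM, these were 25339 nt for KAT6B and 18784 nt for KAT6A, whose longest transcripts have 8348 and 9254 nt. By counts KDM6B was lowest in SsA libraries, with a mean of 7.04 CPM, against 14.0 for KAT6B and 19.7 for KAT6A.

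The partners of these enzymes and their relatives outside the 43 genes were read from lists of 127 genes, of which 118 were tested. In SsA 22 were higher and 46 lower; the median log2 fold change was -0.13, and with the length correction 18 were higher and 24 lower. As shares of the 118 these are to be read against the 25.9% higher and 27.9% lower of all tested genes, and 15.7% and 16.8% with the correction, as are the counts of each list, several of which lie near those shares. Without SsA replicate 2 or 3 the higher count was 10, and without DMSO replicate 1 it was 14. Over all tested genes the higher count fell as well, from 2956 to 2005 without SsA replicate 2, 2025 without SsA replicate 3 and 2168 without DMSO replicate 1. Among 11 tested PRC2 partners 2 were higher and 3 lower, near the shares of all tested genes. The histone-binding RBBP7 (0.33; corrected 0.44) and the H3K36me-binding PHF1 (0.37; corrected 0.14) were higher, and JARID2 (-1.02; corrected -0.68), which recruits PRC2, and LCOR (-0.86; corrected 0.11) were lower. LCOR passed the expression filter only through the DMSO libraries. The call of PHF1 was lost without DMSO replicate 1 or 3 or SsA replicate 2 or 3. Among 20 tested partners in the CoREST, SIN3 and NuRD complexes, through which HDAC1, HDAC2 and KDM1A act, 4 were higher and 6 lower. SAP30 of the SIN3 complex (0.67; corrected -0.02) and HMG20B (0.39; corrected 0.19) were higher, and the CoREST scaffold RCOR1 (-0.57; corrected -0.23) and GSE1 (-0.83; corrected -0.32) were lower. With the correction 4 of the 20 were higher and 16 not called.

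Of 27 tested partners of the MYST acetyltransferases, 6 were higher and 14 lower, and with the correction 2 were higher and 9 lower. TRRAP, the large scaffold of the TIP60 complex, had 53.7, 44.7 and 44.6 CPM in SsA libraries and 153, 147 and 176 CPM in DMSO libraries, a log2 fold change of -1.74 ± 0.11 (edgeR, adjusted p = 8.42e-05) and -0.90 ± 0.07 with the correction. JADE2 (-0.85; corrected -0.44) was also lower, and the PHD-finger protein ING4 (0.64; corrected 0.22) and MEAF6 (0.35; corrected 0.07) were higher. Among 15 tested partners of the H3K9, H3K36 and H3K79 enzymes, 2 were higher and 8 lower (median log2 fold change -0.65). MLLT6, a DOT1L partner, had 58.1, 66.6 and 59.9 CPM in SsA libraries and 156, 166 and 165 CPM in DMSO libraries, a log2 fold change of -1.40 ± 0.07 (edgeR, adjusted p = 5.45e-05) and -0.89 ± 0.08 with the correction. AFF4 of the super elongation complex was lower at -0.91 (corrected -0.26). Higher were TRIM28 (0.18), which recruits SETDB1, and the heterochromatin protein CBX1 (0.38), but both calls were lost without DMSO replicate 1 or SsA replicate 2 or 3, that of TRIM28 also without DMSO replicate 2 and that of CBX1 also without DMSO replicate 3.

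Of 18 other lysine methyltransferases tested, 3 were higher and 9 lower, and with the correction 1 was higher and 6 lower. SETD5 (-1.23; corrected -0.79) and PRDM15 (-0.65; corrected -0.18) were lower. SMYD2 (0.37; corrected 0.59) and SMYD3 (0.54; corrected 0.17) were higher, calls lost without DMSO replicate 1 or SsA replicate 2 or 3, and for SMYD2 also without DMSO replicate 3. Of 6 other demethylase relatives tested, 2 were higher and 2 lower. The JmjC proteins JMJD6 (0.53; corrected 0.84) and RIOX2 (0.35; corrected 0.64) were higher, and PHF2 (-0.77; corrected -0.45) and HR (-0.56; corrected -0.16) were lower. RIOX2 lost its call without DMSO replicate 2 or 3 or SsA replicate 2 or 3. Of 7 other histone acetyltransferases, 4 were lower and 3 not called, GTF3C4 at -0.72 (corrected -0.10) and NAA40, which acetylates histone N-termini, at -0.54 (corrected -0.33) among them. The log2 fold changes of the 5 other deacetylases and sirtuins tested ran from 0.06 (HDAC10) to 0.24 (SIRT7), and the smallest adjusted p among them was 0.0900 (SIRT2, edgeR). SIRT2, a cytoplasmic tubulin deacetylase, was higher with the length correction, at 0.39.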

How the data were processed

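Polyadenylated RNA of 6 libraries, 3 per group, was sequenced. The submitters' processing notes name the build GRCh38 and the tools HISAT2 2.0.4, StringTie 1.3.4d and cutadapt 1.9. The sources used here give neither their settings and annotation nor the strand setting and counting step. The authors deposited 1 whole-number count and 1 FPKM value per gene and library, per the file headers. The FPKM values had been divided by library size and by 1 length per gene by the authors, the same in every library, so this length does not alter a fold change.

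Column names marked SA were read as SsA and the others as DMSO. IDs were matched to GENCODE release 29 (28679 rows), and 99.6% of tested genes had a length. Genes with FPKM of at least 1 in at least 3 libraries were tested two-sided with edgeR 4.0.16 (R 4.3.3) after TMM scaling, with Benjamini-Hochberg adjustment. Each SE was taken from the log2 fold change and the square root of its F statistic. The biological coefficient of variation was 15.3%. CPM used TMM-scaled library sizes. A length term was planned; that its trend was estimated on the 10040 protein-coding genes was decided after seeing the data. TPM was computed from the deposited FPKM. The 18 settings included DESeq2 1.42.0, limma 3.58.1 on log2 values, other filters, corrections and each library left out. The scripts were tested on simulated data.

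Libraries of a group were not duplicates: within groups, log2 values correlated at 0.974 to 0.991 over genes. SsA replicates 2 and 3 correlated at 0.988 and DMSO replicates 1 and 2 at 0.991. Pairs within a group that included SsA replicate 1 or DMSO replicate 3 correlated at 0.974 to 0.980, so the 3 libraries of a group were not equally alike. Values per library were given for the 3 called genes of smallest p in each direction and class and for 5 paralog pairs, and from each related list the 2 called genes of smallest p in each direction were named; DOT1L, the extremes of FPKM, the ends of the deacetylase list, SIRT2 and PRMT5 were added after their values were seen. The 43 genes and the lists were chosen with earlier results of these data known. The deviations of same-numbered libraries correlated at -0.34, 0.29 and -0.35 for replicates 1, 2 and 3, which does not decide whether they were paired. The deviations of SsA replicate 1 and DMSO replicate 3 correlated at 0.55, and the source of this was not tested. From the hepatocyte list, 1 marker is not reported here.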

Additional observations from a re-analysis of the deposited data

How the results depend on the processing

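Of the 25 genes called lower, 23 were called lower in every setting without a length correction in which they were tested. The exceptions were KDM4A on log2(TPM + 1) and PHF8 without SsA replicate 2. Adding the length correction, the correction with GC content and the correction with the replicate block, each on all 6 libraries, 10 of the 25 kept the call. Corrected fits with a library left out are not counted there. In those, 8 of the 16 genes lower with the correction kept that call each time, and KDM4B and JMJD1C, which are among the 10, did not. The lower count without a correction ran from 25 to 26 when 1 library was left out, and the higher count from 1 to 4. Over all tested genes the lower count then ran from 2594 to 3249 and the higher count from 2005 to 3153. None of the 41 genes was called higher by limma on log2(FPKM + 1), log2(FPKM + 0.1) or log2(TPM + 1) or with the replicate block. In these settings 28, 27, 24 and 25 of them were lower. The filter on a mean FPKM of at least 5 removed some of the 41. DOT1L, for example, averaged 1.16 FPKM in SsA libraries and 4.02 in DMSO libraries. Among those left 0 were higher and 18 lower, counts that are not out of 41. With SsA replicate 1 and DMSO replicate 3 both left out, 4 genes were called higher. Limma on log2(FPKM + 1) called 914 of all genes higher and 3723 lower, with 0.1 in place of 1 it called 886 higher, and on log2(TPM + 1) 2495 changed and 49 higher; the medians of all genes there were -0.11, -0.13 and -0.31. The median of the 41 genes was -0.72 on log2(FPKM + 0.1) and -0.89 on log2(TPM + 1). A mean FPKM of at least 5, which tests fewer genes, left 3428 changed, 1666 higher and 1762 lower. The length correction left 3707 changed, 1792 higher and 1915 lower, with GC content added 3730, 1745 and 1985, and with the replicate block 2082, 982 and 1100; the lower count of the 41 was 16, 13 and 11 and the median -0.18, -0.17 and -0.18. With the length behind the deposited FPKM in place of the longest transcript, 5 were higher and 15 lower, and with the APPRIS transcript 3 and 14. Leaving out 1 library gave 9 to 19 lower with the correction. Related genes called higher numbered 3 on both FPKM scales, 0 on log2(TPM + 1), 11 with a mean FPKM of at least 5 (29 lower), 11 with the replicate block, and 10 to 25 without 1 library. Lower related genes numbered 24 with the length correction, 25 with GC and 14 with the block (11 higher). With the correction and 1 library left out, 10 to 19 related genes were higher and 15 to 30 lower, and in the 4 libraries 29 and 41. No count over all tested genes is given for these corrected fits, so the ranges cannot be read as a result about these genes. Without the correction, calls over all tested genes ran from 4599 to 7747 over the same sets of libraries. Signs turned on log2(TPM + 1) for HDAC2 (-0.12), HDAC3 (-0.12), RBBP7 (-0.040), MEAF6 (-0.014), TRIM28 (-0.18) and RIOX2 (-0.021). With the length correction, the correction with GC and the correction with the block, they turned for KDM5A (0.040, 0.029 and 0.042), KAT7 (0.091, 0.10 and 0.089), HDAC3 (-0.086, -0.078 and -0.087), LCOR (0.11, 0.12 and 0.11) and SAP30 (-0.023, -0.038 and -0.017), and with GC for KDM2B (0.018). The cause was not tested. The labels do not say whether the numbers pair the samples. Deviations of same-numbered libraries correlated at -0.34, 0.29 and -0.35. These values cannot decide it, because the libraries that stood apart, SsA replicate 1 and DMSO replicate 3, carry different numbers. With the replicate block HDAC2 and HDAC3 lost their calls (edgeR, adjusted p = 0.0547 and 0.0805). The counts limit single genes of low level such as KDM6B.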

Other observations

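Arginine methyltransferases methylate arginines of histones and of RNA-binding proteins. Of 8 tested, 2 were higher in SsA (PRMT1 and PRMT5) and 6 not called, with a median log2 fold change of 0.16, and their listed partner WDR77 was also higher; 25.9% of all tested genes were. PRMT1, which places most asymmetric dimethylarginine, had 159, 170.4 and 167 CPM in SsA libraries and 107, 116 and 103 CPM in DMSO libraries, a log2 fold change of 0.61 ± 0.07 (edgeR, adjusted p = 0.00056). Its call was lost by limma on log2(TPM + 1) (adjusted p = 0.580). WDR77, the partner of PRMT5, had 84.8, 94.2 and 97.2 CPM in SsA libraries and 59.9, 67.7 and 55.8 CPM in DMSO libraries, a log2 fold change of 0.59 ± 0.09 (edgeR, adjusted p = 0.00209). Its call was lost by limma on log2(FPKM + 1), log2(FPKM + 0.1) and log2(TPM + 1) (adjusted p = 0.0725, 0.0743 and 0.631). PRMT5, the symmetric arginine methyltransferase, was called higher at 0.22 (edgeR, adjusted p = 0.0314), a call lost when any 1 of the 6 libraries was left out (edgeR, adjusted p of 0.0504 to 0.124) and with the length correction. With the correction 4 of the 8 and WDR77 were higher, against 15.7% of all tested genes, PRMT1 at 0.18 and WDR77 at 0.43 among them. PRMT1 is a short gene, of 1686 nt, and in its length decile 59.4% of protein-coding genes were called higher. These 9 genes were on a list chosen with earlier results of these data known.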
